A study of Mus musculus with 25 samples.

Results

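The cytosolic ribosomal protein genes of mouse tumour-infiltrating CD8+ T cells were followed across 4 genotypes. They were taken by symbol: Rps or Rpl with a number and at most a trailing a, l or x and digit, the stalk genes Rplp0, Rplp1 and Rplp2, and Rpsa. The deposited table holds 23366 symbols, of which 83 have such a name, and 81 of these reached a value of at least 1 in at least 3 libraries. These 81 genes, 32 of the small subunit and 49 of the large subunit, are described here. The other 2, the paralogues Rpl3l and Rpl10l, stayed at or below 0.27 and 0.33 in every library.

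The cells came from C57BL/6 mice bearing B16F10 melanoma, a transplantable mouse tumour line, and bulk RNA was profiled in 25 libraries. Wild type had 16 libraries, and a conditional knockout (cKO) of Prdm1, of c-Maf, and of both together (Prdm1/c-Maf cDKO) had 3 each. Prdm1 encodes the transcriptional repressor Blimp-1 and Maf the bZIP transcription factor c-Maf, and the groups allow the effect of losing 1 or both to be compared. The labels give no age, treatment, deleting Cre line or its promoter, and do not say whether libraries came from separate animals, so the p-values below measure the spread between libraries, which may be technical. RNA came from 5 µL of lysate of about 2000 cells on average, amplified by an adapted SMART-Seq 2 method.

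Cytosolic ribosomes translate nuclear-encoded mRNA. Each holds a small subunit, which reads the mRNA, and a large subunit, which forms peptide bonds, and their proteins are made in matched amounts from a large set of abundant mRNAs. Many of these mRNAs begin with a cytosine followed by a run of pyrimidines, the 5′ terminal oligopyrimidine tract, through which the growth-sensing kinase mTORC1 and the binding protein Larp1 control their translation. In T cells, ribosome production rises on activation, and paralogues such as Rpl22 and Rpl22l1 have been tied to thymocyte development.

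Promoter sequence was found in RefSeq (build GRCm38.p6) for 61 of the 81 genes. The windows below run from 40 bases before to 20 bases after the first listed start, on the gene's strand, with any run of at least 6 pyrimidines from 10 bases before the start onward in capitals. The first 4 are the genes with the largest log2 fold change in cDKO among those with an entry, and the last 4 are paralogues, of which 2 were lower there. They lie at chr3:90213629-90213688 on the minus strand (Rps27), chr17:33824543-33824602 minus (Rps28), chr14:24490638-24490697 plus (Rps24), chr2:32961672-32961731 plus (Rpl12), chr9:66946046-66946105 plus (Rps27l), chr17:46782637-46782696 minus (Rpl7l1), chr16:10170188-10170247 plus (Rpl39l) and chr3:28805468-28805527 plus (Rpl22l1).
Rps27: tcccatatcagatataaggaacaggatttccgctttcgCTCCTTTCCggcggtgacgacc
Rps28: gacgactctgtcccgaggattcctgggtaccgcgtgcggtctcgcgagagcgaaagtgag
Rps24: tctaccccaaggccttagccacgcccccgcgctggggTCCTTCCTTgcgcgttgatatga
Rpl12: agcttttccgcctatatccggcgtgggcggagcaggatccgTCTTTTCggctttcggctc
Rps27l: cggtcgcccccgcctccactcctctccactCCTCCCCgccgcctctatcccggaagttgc
Rpl7l1: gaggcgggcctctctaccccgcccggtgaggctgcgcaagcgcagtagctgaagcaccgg
Rpl39l: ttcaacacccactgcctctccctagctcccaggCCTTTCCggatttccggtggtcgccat
Rpl22l1: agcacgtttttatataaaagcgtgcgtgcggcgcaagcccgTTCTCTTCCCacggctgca

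Of the 4 genes with the largest log2 fold changes, Rps27, Rps24 and Rpl12 hold such a run within the searched stretch and Rps28 does not. Of the 4 paralogues, Rps27l, Rpl39l and Rpl22l1 hold one and Rpl7l1 does not. The runs of Rps27l and Rpl39l lie wholly before the listed start. Within 10 bases before to 20 bases after the start, a run of at least 6 pyrimidines stood on the gene's strand in 35 of 61 ribosomal protein genes (57.4%) against 28.6% of 27025 genes with a promoter entry. On the opposite strand the shares were 13.1% and 31.7%. Over the whole 300 bases and both strands, the letters CTTCCGG, the core read by ETS factors, occurred in 25 of the 61 (41.0%) against 9.12% of all genes. A pyrimidine run can overlap the first letters of this core. The letters GNGAAAG, part of the sequence read by Blimp-1 and by IRF factors, occurred in 27 (44.3%) against 22.6%, among them Rps27 and Rps28 but not Rps24 or Rpl12. On the opposite strand they read CTTTCNC, mostly pyrimidines, so a pyrimidine run can overlap this match too. In the Rps27 window above, such a match (ctttcgC) meets the run in capitals. The part of this overlap in the count was not tested. The letters TGCTGA, a core of Maf recognition sites, occurred in 6 (9.84%) against 19.1%. These are matches of letters in reference sequence, not measured sites.

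Each library is named by the code in its column header. The columns fall into 3 runs, in which wild-type columns stand before 1 knockout group (Prdm1 cKO in run 1, c-Maf cKO in run 2, cDKO in run 3). The labels name no batch, and the runs were used as a check. The codes do not follow the runs throughout. In run 3 the wild-type libraries are B1, B2, B3, B4 and B6, and the cDKO libraries are C2, A1 and A2, while run 1 holds A3 to A12. Whether the libraries of a run were handled together is therefore not known. The Prdm1 signal averaged 15.5 ± 5.31 in wild type (SD, n = 16) and was 4.71 or less in every Prdm1 cKO and cDKO library. Maf was under 1.1 everywhere, and the library labelled c-Maf cKO C1 had the group's highest value, 0.93, within the wild-type range of 0.03 to 0.95. Ribosomal protein values were highest in C2 (cDKO) for 55 of the 81 genes and in A6 (Prdm1 cKO) for 17, and lowest in B3 (wild type) for 59, so results are also given without these libraries. All 8 CD8 T cell markers were above 0 in every library. Their sum was lowest in B3 (1192, against a wild-type median of 2546). The sum of 9 melanoma markers ran from 7.63 in B6 to 3860 in B3 in wild type, and from 124 to 1703 in cDKO. B3 also had the lowest column total (389650) and the highest share of the 45S precursor Rn45s (17.3%). The part of tumour cells in the results was not tested.

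In wild type the ribosomal protein genes were among the most abundant messages and varied little. On the deposited scale 76 of the 81 had a wild-type mean above 100 and 38 above 1000, with a median of 911. The low end of the scale falls with transcript length, as in values per length: the 10th percentile of values above 0 was 0.29 for the 5433 genes with the shortest transcripts and 0.08 for the 5430 with the longest, of 21732 with a length. Levels of different genes are therefore compared on the deposited scale only, and its exact unit is not stated. The highest means were those of the stalk protein Rplp0 (2319 ± 337, SD, n = 16), the small-subunit protein Rps4x (2233 ± 225) and the very short Rpl41 (1809 ± 312). The lowest were Rpl39l (2.28 ± 5.72), Rpl34 (21.8 ± 4.75) and Rpl7l1 (29.0 ± 4.11).

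The SD of log2(value + 1) across the 16 wild-type libraries had a median of 0.17 over these genes, against 0.39 over all 12251 genes tested and 0.22 over tested genes at least as abundant as the member at the 10th percentile of the 81. The most even were Rps14 (0.11), Rps19 (0.12) and Rpl19 (0.12). The least even were Rpl39l (1.30), Rps27 (0.43) and Rps27l (0.32).

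The 81 genes together took a larger share of the summed signal in cDKO than in any wild-type library. The share was 25.7% in C2, 22.5% in A1 and 23.5% in A2, against 15.2% to 19.2% in wild type with a median of 17.8%. In Prdm1 cKO it was 19.2% in A5, 24.7% in A6 and 18.2% in A9, so only A6 lay clear of the wild type. In the libraries labelled c-Maf cKO it was 18.5% in B10, 17.4% in B11 and 15.6% in C1, all within the wild-type range. In bulk samples like these, fewer cells of a type and less of an RNA per cell cannot be told apart.

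**Figure D1:**
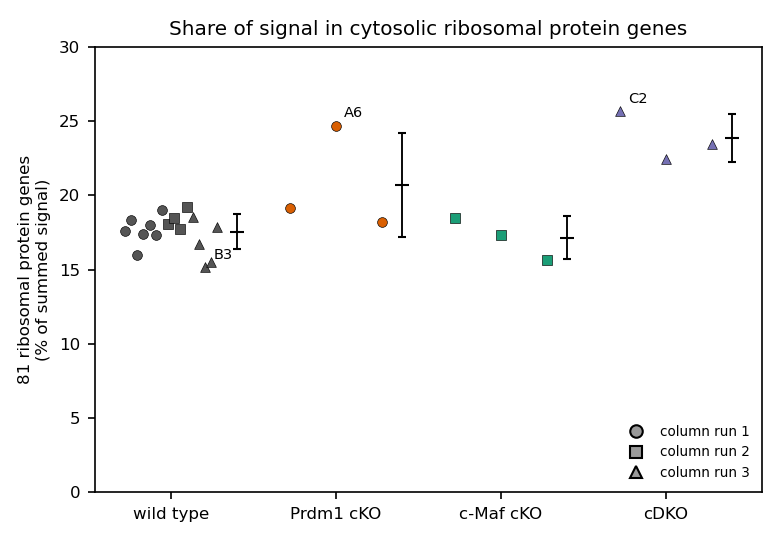
Share of the summed signal held by the 81 cytosolic ribosomal protein genes (y axis, %) in each library, split by genotype along the x axis; symbols mark the 3 runs of columns, and bars show the group mean with its SD. The 3 cDKO libraries lie between 22.5% and 25.7%, above all 16 wild-type libraries, and A6 at 24.7% stands apart from the other Prdm1 cKO libraries.

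In cDKO most cytosolic ribosomal protein genes were higher than in wild type, by a moderate and rather even amount. Of the 81, 64 were called higher and 2 lower by limma at a Benjamini-Hochberg adjusted p under 0.05, against 5.09% of all 12251 genes called higher and 6.85% lower. The median log2 fold change was 0.49 (range -0.74 to 1.23), against -0.03 over all genes. The 481 other genes with a mean of at least 100 had a median of -0.26, with 6.86% higher and 28.1% lower. Both subunits took part: 27 of 32 small-subunit genes were higher and 1 lower (median 0.55), and 37 of 49 large-subunit genes were higher and 1 lower (median 0.46). In 51 genes all 3 cDKO libraries lay above all 16 wild-type libraries, an order found in 3.12% of all genes, and in 1 gene, Rpl7l1, all lay below (2.16% of all genes).

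Within column run 3 alone, the 3 cDKO libraries lay above all 5 wild-type libraries in 64 of the 81 genes (7.37% of all genes) and below them in 1 (5.38%). The wild-type share of the summed signal averaged 16.8% in this run, against 17.7% in run 1 and 18.4% in run 2. The fit with the column run as a covariate called 69 higher and 1 lower. Without C2, 41 were higher and 1 lower, and without A6 and B3 66 were higher and 2 lower. For these and the other refits below, the share of all genes called is given only where stated. Counted against each gene's wild-type range, C2 exceeded it in 73 genes, A2 in 65 and A1 in 51. The share of all genes above this range in a single library was not computed.

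Other features moved with these genes. The 6 naive and memory T cell markers (Tcf7, Lef1 and others) were all called higher in cDKO, with a summed signal of 1283 to 1541 against 178 to 663 in wild type. With the mean of these markers as a covariate the median of the ribosomal protein genes was 0.51, and 0 of the 81, as 0 of all genes, were called. Of 6 tested erythroid markers 4 were higher, with summed signals of 463 in C2, 2275 in A1 and 4254 in A2 against 1.38 to 1568 in wild type, and at most 2 of the listed markers at 0 in a cDKO library against up to 6 in wild type. C2 had the highest ribosomal protein values of the 3 and the lowest erythroid sum. It also had the lowest naive and memory sum (1283, against 1338 in A1 and 1541 in A2). Its CD8 T cell marker sum was the highest (2629, against 1382 in A1 and 1657 in A2). With macrophage and erythroid marker scores as covariates 42 genes were higher and 2 lower. All 8 CD8 T cell markers had negative log2 fold changes in cDKO (median -0.29, 1 called lower), and 3 of 6 CD4 and regulatory T cell markers were called lower (median -0.72). In that list 5 values were negative and 1 positive. Foxp3 had means of 1.82 in cDKO and 1.34 in wild type, and Cd4 was at 1.84 or less in every library. Ctla4 fell from a mean of 80.8 to 41.3 and Tnfrsf18 from 117 to 63.2. The part of these cell types in the result was not tested.

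**Figure D2:**
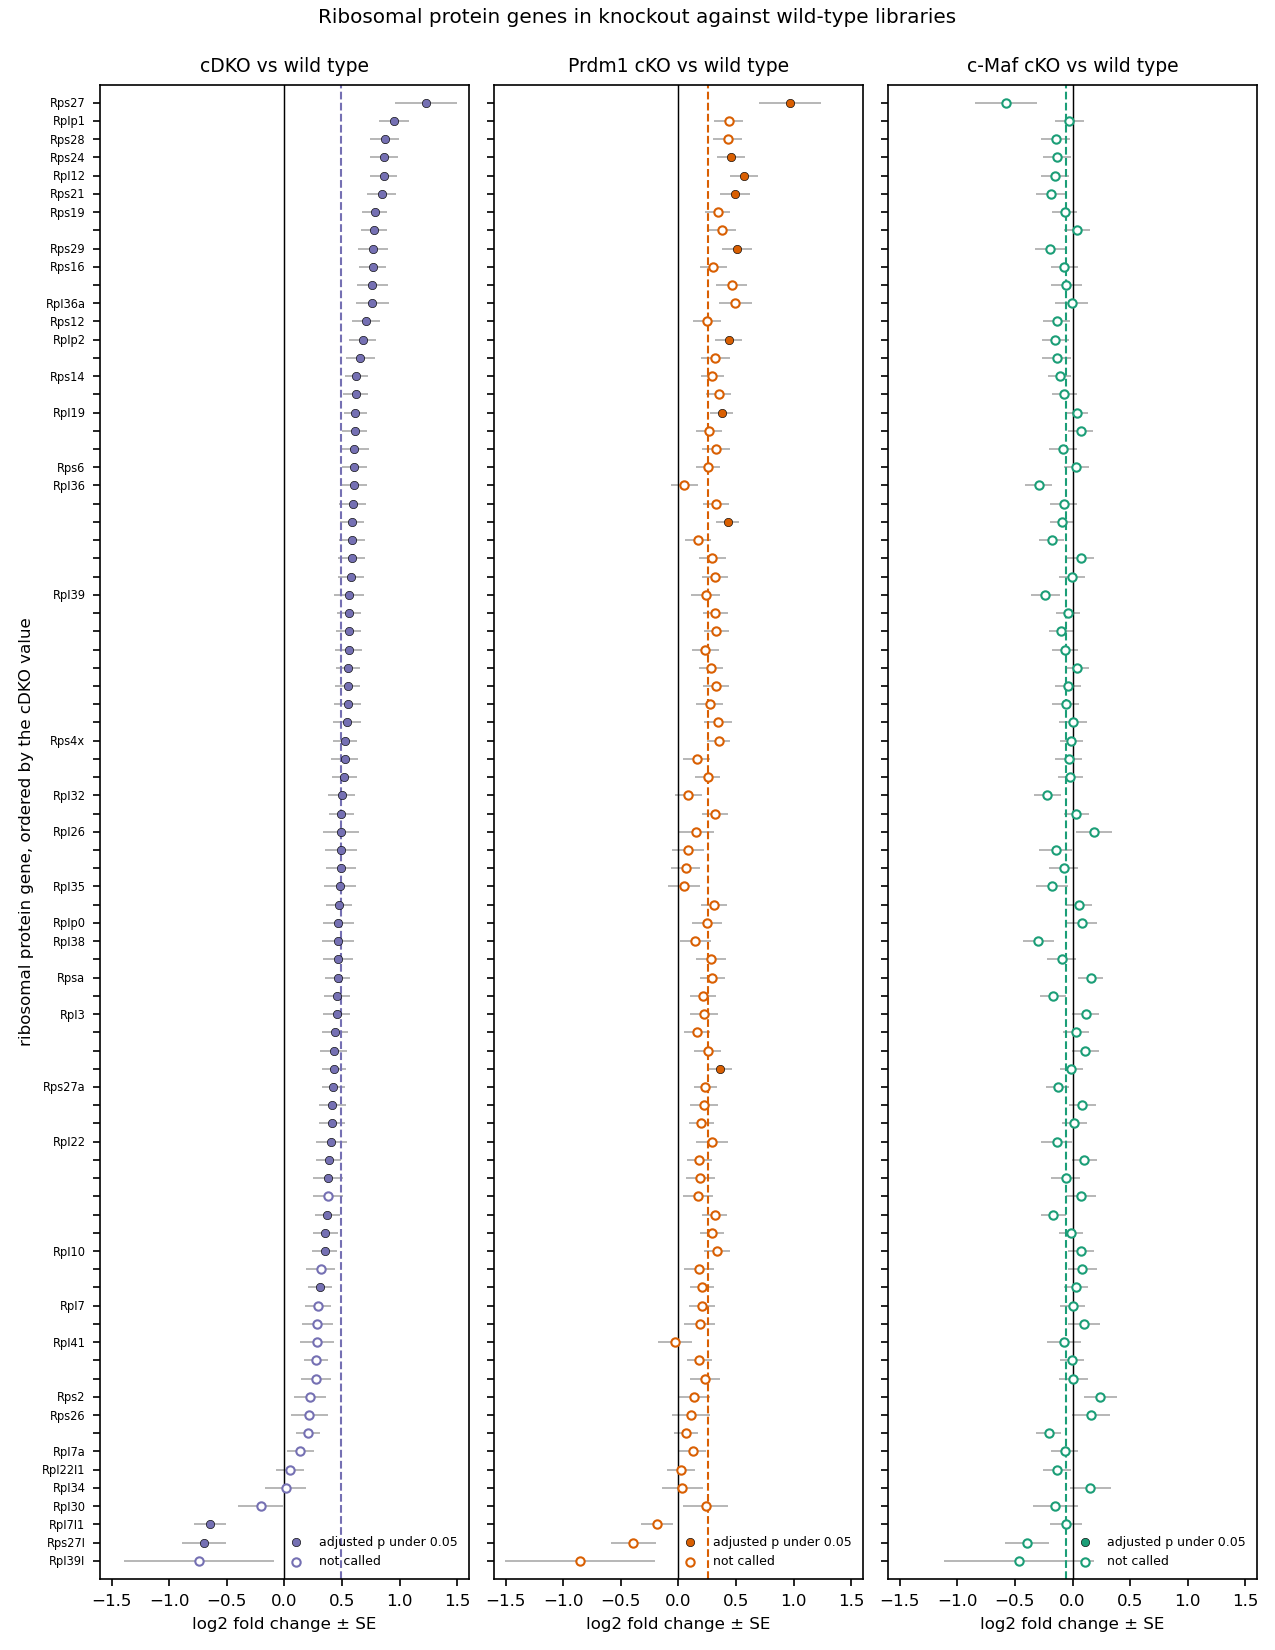
Log2 fold change against wild type (x axis, with its standard error) of the 81 genes (y axis, ordered by the cDKO value, some labelled) for cDKO, Prdm1 cKO and c-Maf cKO; filled points passed the adjusted threshold of 0.05, and dashed lines mark medians. The medians are 0.49, 0.25 and -0.06, and 3 paralogues lie at the bottom in cDKO.

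Among small-subunit genes, Rps27, a zinc-finger protein, had the largest log2 fold change. Its value was 2294 in C2, 1192 in A1 and 2218 in A2, against 415 to 1300.3 in wild type with a median of 748. A1 fell inside the wild-type range and the other cDKO libraries far above it. The log2 fold change was 1.23 ± 0.27 (SE, limma adjusted p = 0.0036), and without A2 it was 1.09 with an adjusted p of 0.054. Wild type itself was scattered for this gene, with 1269 in A3 and 1300.3 in B9 against 415 in A10.

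Rps28, one of the smallest proteins of the small subunit, was at 1321 in C2, 1016 in A1 and 1108 in A2. Wild type ran from 530 to 769 with a median of 616, so the groups did not overlap. It rose by 0.87 ± 0.13 on the log2 scale (limma adjusted p = 0.00011). Rps24, mutated in some patients with Diamond-Blackfan anaemia, was at 1672, 1295 and 1439 against 706 to 927 in wild type (median 787). It too was separated from wild type in every library, with a rise of 0.87 ± 0.12 (limma adjusted p = 7.9e-05). Rps19, the gene most often mutated in that anaemia, was at 2250.4, 1875 and 1956 against 1032 to 1343 (median 1199) and rose by 0.78 ± 0.11 (limma adjusted p = 7.0e-05).

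Rps6, the small-subunit protein phosphorylated by S6 kinase, stood at 1749 in C2, 1464 in A1 and 1591 in A2, above the wild-type range of 815 to 1154 (median 1089). It rose by 0.61 ± 0.11 (limma adjusted p = 0.0005). Rps4x, one of the most abundant of these genes, was at 3280, 3039 and 3291 against 1669 to 2543 and rose by 0.53 ± 0.10 (limma adjusted p = 0.0012). Rps27a, made as a fusion with ubiquitin, rose by 0.42 ± 0.10, from 933 ± 82.6 (SD, n = 16) to values of 1372, 1176 and 1205 (limma adjusted p = 0.0054). Rpsa, also known as the laminin receptor precursor, rose by 0.46 ± 0.11, with 1845, 1608 and 1820 against 904 to 1498 (limma adjusted p = 0.0065). All of these lay above wild type without overlap. The call of Rpsa ended without A2 (adjusted p = 0.065), with the macrophage and erythroid scores (0.11) and under quantile normalisation (0.071, 0.56). That of Rps27a ended without C2 (0.36, adjusted p = 0.051) and under quantile normalisation (0.14, 0.18), and that of Rps4x under quantile normalisation (0.23, 0.098).

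Rps21 was at 756 in C2, 618 in A1 and 612 in A2 against 298 to 449 in wild type (median 356) and rose by 0.84 ± 0.13 (limma adjusted p = 0.00015). Rps29 was at 1271, 945.6 and 1046 against 509.99 to 792 (median 625) and rose by 0.77 ± 0.13 (limma adjusted p = 0.00045). Rps14, the gene lost in the human 5q- syndrome and the most even member in wild type, was at 2509, 2051 and 2311 against 1236 to 1659.7 and rose by 0.62 ± 0.10 (limma adjusted p = 0.0002). Rps16, Rps20 and Rps12 rose by 0.77, 0.76 and 0.71. Among the other small-subunit genes called higher Rps3a1 had the lowest value (0.36), and Rps27 alone passed 1 on the log2 scale.

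The stalk of the large subunit, which recruits translation factors to the ribosome, is built from Rplp0, Rplp1 and Rplp2. Rplp1 was at 3279 in C2, 3045 in A1 and 3339 in A2 against 1373 to 2059 in wild type (median 1669). It rose by 0.95 ± 0.13 (limma adjusted p = 6.6e-05), the largest value of the 81 after that of Rps27. Rplp2 was at 1536, 1206 and 1303 against 710 to 988 (median 842) and rose by 0.68 ± 0.12 (limma adjusted p = 0.0005). Both were clear of the wild type in every library.

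Rplp0, which anchors the other stalk proteins, rose less. It was at 3451 in C2, 2843 in A1 and 3265 in A2 against 1514 to 2700.3 in wild type, a rise of 0.47 ± 0.13 (limma adjusted p = 0.018). Its call ended without C2 (adjusted p = 0.099) or A2 (0.11) and with the macrophage and erythroid scores (0.15). Rpl12, which sits at the base of the stalk, was at 2223, 2076 and 2315 against 949 to 1417 (median 1205) and rose by 0.86 ± 0.12 (limma adjusted p = 7.9e-05).

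Rpl5 and Rpl11 form a complex with 5S ribosomal RNA that can bind Mdm2; both were chosen after their values were seen. Rpl5 was at 1059.9 in C2, 969.6 in A1 and 1045 in A2 against 590.2 to 853 in wild type (median 782) and rose by 0.43 ± 0.10 (limma adjusted p = 0.0065). Rpl11 was at 1629.8, 1203 and 1359.6 against 744 to 1313 (median 1063), with 0.38 ± 0.13 (limma adjusted p = 0.059). A1 lay inside the wild-type range for Rpl11 and none did for Rpl5.

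Rpl36, a small large-subunit protein, was at 957 in C2, 698 in A1 and 741 in A2 against 446 to 642 in wild type (median 533). It rose by 0.60 ± 0.12 (limma adjusted p = 0.0013). Its values in the single knockouts were 472, 680 and 491 in Prdm1 cKO and 461, 404 and 411 in the libraries labelled c-Maf cKO. Rpl19, one of the most even genes in wild type, was at 2866, 2509 and 2898 against 1442 to 2018 and rose by 0.62 ± 0.10 (limma adjusted p = 0.00027). Among the remaining large-subunit genes that were called higher, Rpl29 had the lowest value (0.31) and Rpl36a was at 0.76.

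The 15 genes with no call in cDKO had log2 fold changes from -0.74 (Rpl39l) to 0.38 (Rpl11). They comprised 4 of the small subunit, among them Rps2 and Rps26, and 11 of the large subunit, among them Rpl7, Rpl7a, Rpl22l1, Rpl30, Rpl34, Rpl39l and Rpl41. Rpl7a was at 819 in C2, 711 in A1 and 835 in A2 against 531 to 879 in wild type, with 0.14 ± 0.12 (limma adjusted p = 0.53). Rps2 was at 2246, 1764 and 2062 against 1237 to 2286, with 0.22 ± 0.14 (limma adjusted p = 0.34). Rps26, also mutated in some patients with Diamond-Blackfan anaemia, was at 1420.04, 1027 and 1195 against 634.5 to 1385, with 0.22 ± 0.16 (limma adjusted p = 0.46). Rpl30 was at 45.7, 72.2 and 41.1 against 38.2 to 78.2, with -0.20 ± 0.20 (limma adjusted p = 0.58). All cDKO values of Rpl7a, Rps2 and Rpl30 lay inside the wild-type range, and for Rps26 only C2 lay above it.

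The 2 genes called lower in cDKO, Rps27l and Rpl7l1, are both paralogues of another member. Rps27l, a close copy of Rps27 known as a p53 target, was at 53.4 in C2, 92.0 in A1 and 61.6 in A2, against 60.4 to 155 in wild type with a median of 110.2. It fell by 0.69 ± 0.19 (limma adjusted p = 0.017) while Rps27 rose. The fall was past the threshold in 33 of 39 alternative settings; it ended without C2 (-0.53, adjusted p = 0.14), without A2 (-0.63, 0.13), with the column run (-0.59, 0.11) or the naive and memory score (-0.11, 0.97) as covariate, under quantile normalisation (-0.49, 0.11) and rescaled to the CD3 genes (-0.27, 0.64). As a percentage of Rps27, Rps27l was 2.33% in C2, 7.72% in A1 and 2.78% in A2, against 6.89% to 23.7% in wild type. A1 fell inside that range.

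Rpl7l1, a relative of Rpl7, was at 19.2 in C2, 18.7 in A1 and 16.4 in A2 against 22.9 to 36.3 in wild type (median 28.4). All cDKO libraries lay below all wild-type libraries, and it fell by 0.64 ± 0.14 (limma adjusted p = 0.003). The call ended when values were rescaled to the CD3 genes (-0.23, adjusted p = 0.58), where the median of all genes was 0.31, and with the naive and memory T cell score (-0.60, adjusted p = 0.75). Its parent Rpl7 was at 1457, 1276 and 1345 against 757 to 1278, with a log2 fold change of 0.29 ± 0.11 (limma adjusted p = 0.089). Rpl7l1 thus made up 1.32%, 1.46% and 1.22% of the Rpl7 value in cDKO, against 2.10% to 3.30% in wild type.

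Rpl22, whose loss blocks development of alpha-beta T cells, was less abundant than its paralogue Rpl22l1 on the deposited scale. Rpl22 was at 95.6 in C2, 83.9 in A1 and 93.0 in A2 against 51.5 to 85.6 in wild type (median 68.3), and A1 lay inside that range. The rise of 0.41 ± 0.14 was at the edge of the threshold (limma adjusted p = 0.049) and was called in 16 of 39 alternative settings. Rpl22l1 was at 222, 160 and 152 against 130 to 225 (median 172), with 0.05 ± 0.12 (limma adjusted p = 0.85). It stood at 232%, 191% and 164% of Rpl22, against 211% to 318% in wild type, so A1 and A2 lay below the wild-type range and C2 within it.

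Rpl39l, known best from testis, was close to 0 in most libraries and is listed at 0 in 2 of 3 cDKO libraries and all 3 Prdm1 cKO libraries. Its signal stood out only in wild-type libraries of column run 2, with 22.8 in B7, 5.24 in B8 and 4.81 in B9, against 1.59 or less in every other library; the fourth wild-type library of that run, B5, was at 0.14. Its parent Rpl39 was at 1285, 1117 and 1158 in cDKO against 581 to 1115 in wild type and rose by 0.56 ± 0.13 (limma adjusted p = 0.0042). The parents of the 2 paralogues below the minimum, Rpl3 and Rpl10, rose by 0.45 ± 0.12 and 0.35 ± 0.11 (limma adjusted p = 0.013 and 0.038); neither held throughout. Rpl3 lost its call without C2 (adjusted p = 0.054) or A2 (0.098), with the macrophage and erythroid scores (0.099) and under quantile normalisation, where it read 0.039 (0.81). Rpl10 lost its call without any 1 of C2, A1 or A2, with those scores, with no filter, without limma's trend and robust options and under quantile normalisation, where it read -0.040. The call of Rpl39 ended under quantile normalisation (0.26, adjusted p = 0.094).

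**Figure D3:**
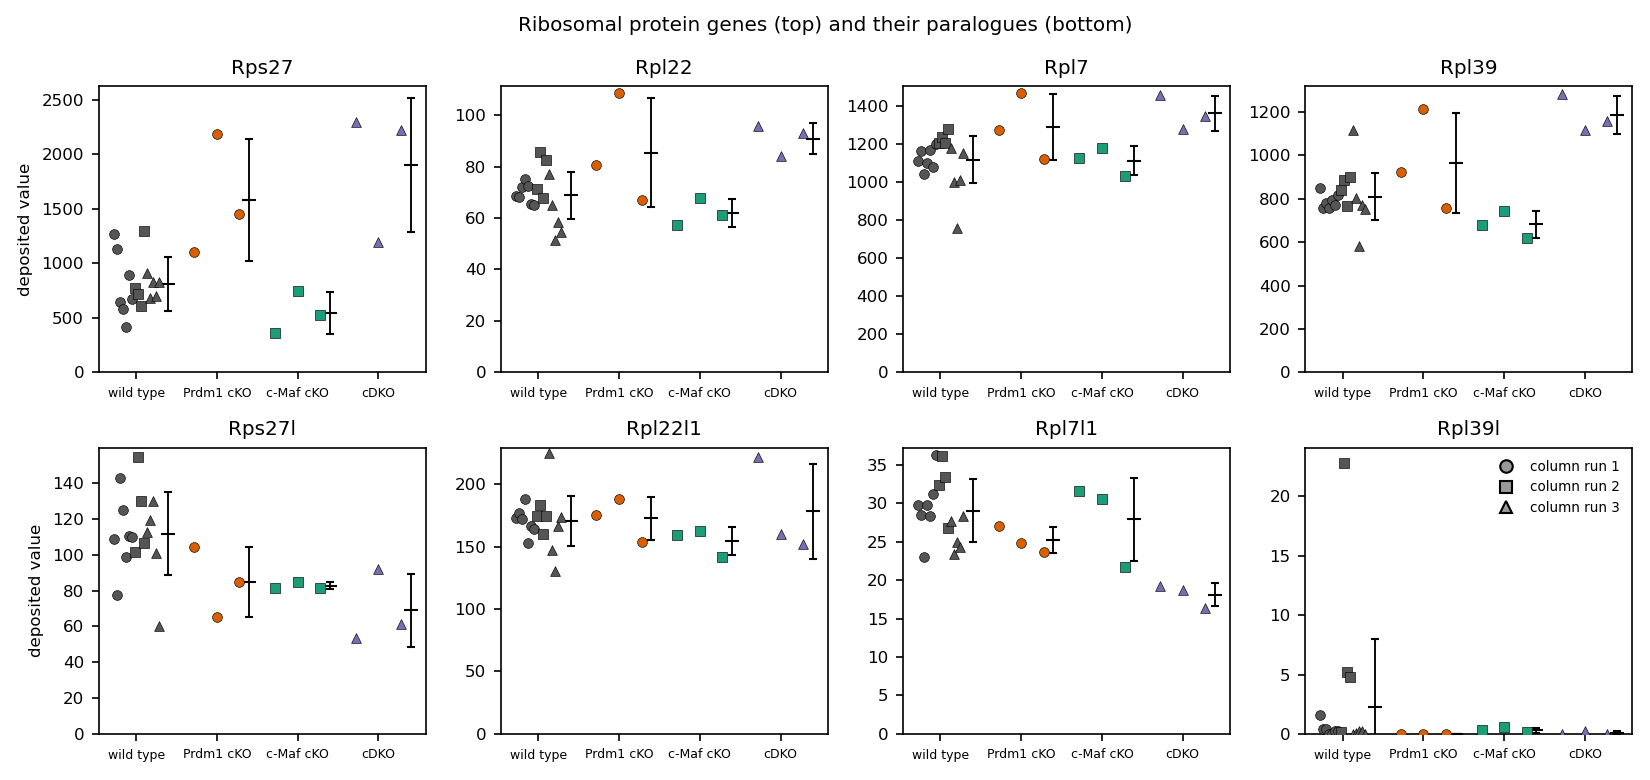
Deposited values (y axis) of 4 ribosomal protein genes (top row) and their paralogues (bottom row) in each library, split by genotype along the x axis; symbols mark the 3 runs of columns, and bars show the group mean with its SD, cut at 0 for Rpl39l. In cDKO, Rps27 and Rpl39 rise and Rps27l and Rpl7l1 fall, while all 3 values of Rpl22l1 lie within the wild-type range.

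Some low values sit beside a copy with nearly the same sequence, so the split between them is uncertain. Rpl34 held 2.59% ± 0.54 (SD, n = 16) of the summed value of Rpl34 and its processed copy Rpl34-ps1 in wild type. Rpl34-ps1 was at 1278 in C2, 1113 in A1 and 1173 in A2 against 636 to 973 in wild type and rose by 0.53 ± 0.11 (limma adjusted p = 0.0026). Rpl34 itself was at 16.5, 22.7 and 26.6 against 15.8 to 30.2, with a log2 fold change of 0.01 ± 0.18 (limma adjusted p = 0.98). The pair summed to 1295, 1136 and 1199 against 651 to 991, so the sum lay above the wild type in every cDKO library although the Rpl34 row did not.

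Rps15a held 31.2% ± 0.93 of the summed value of itself, Rps15a-ps4 and Rps15a-ps6 in wild type, close to an even split in 3. In cDKO its part was 31.2% ± 1.45 (n = 3). The sum was 365 ± 49.9 in wild type and 511 ± 57.1 in cDKO. Rps15a alone was at 179, 140 and 159 against 81.2 to 148 and rose by 0.49 ± 0.14 (limma adjusted p = 0.022). Rplp2, Rpl31 and Rps19 also have a named copy in the table but held 99.1%, 88.5% and 99.9% of their sums in wild type.

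In Prdm1 cKO most of these genes read higher than in wild type, but few passed the test and 1 library, A6, carried most of the shift. Of the 81, 9 were called higher and 0 lower by limma (Rpl12, Rpl19, Rpl23, Rpl5, Rplp2, Rps21, Rps24, Rps27 and Rps29), against 1.58% of all genes higher and 1.87% lower, with a median of 0.25. At an unadjusted p under 0.05 there were 45 (55.6%), against 2529 of all genes (20.6%). In 5 genes all 3 libraries lay above all wild-type libraries (0.824% of all genes). Without A6, 0 were called and the median was 0.10; without A9, 1 was called, and without A5, A4 or B3, 19, 15 and 14. Without A6 and B3 the median was 0.076. A6 exceeded the wild-type range in 71 of the 81 genes, A9 in 18 and A5 in 6. In the libraries labelled c-Maf cKO the counts were 5 in B10, 0 in B11 and 0 in C1. The share of all genes was not computed for these counts.

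Rpl12 had the lowest adjusted p. It was at 1497 in A5, 2460 in A6 and 1586 in A9 against 949 to 1417 in wild type, a rise of 0.57 ± 0.12 (limma adjusted p = 0.011), and 0.34 with an adjusted p of 0.15 without A6. Rps27 was at 1099.9, 2189 and 1450.4 against 415 to 1300.3 and rose by 0.96 ± 0.27 (limma adjusted p = 0.044). Its A5 value fell inside the wild-type range, and 20 of 39 alternative settings called it. Rps29 was at 723, 1221 and 825 against 509.99 to 792, a rise of 0.51 ± 0.13 (limma adjusted p = 0.033), again with A5 inside the range. For Rplp1, at 1815, 3120.5 and 2019 against 1373 to 2059, the log2 fold change was 0.44 ± 0.13 (limma adjusted p = 0.052), and A6 alone lay outside the wild type.

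Within column run 1 all 3 Prdm1 cKO libraries lay above all 7 wild-type libraries in 11 genes (1.65% of all genes) and below in 0 (2.29%). With the column run as covariate, or with macrophage and erythroid scores, 0 were called and the medians were 0.25 and 0.29. Macrophage and monocyte markers moved with this genotype: 13 of 13 tested had positive log2 fold changes, with summed signals of 1438 in A5, 1611 in A6 and 4100 in A9 against 52.6 to 2422 in wild type and 0 of the markers at 0, and 1 of the 13 was called higher. The erythroid sums were 221, 1073 and 1842, and the naive and memory sums 714, 1087 and 584. A6 had the highest naive and memory sum of the 3 and the highest ribosomal protein share. In cDKO the order differed: C2 had the lowest sum (1283) and the highest share (25.7%). Among wild-type libraries B3 had the lowest share (15.2%) with a sum of 503, and B7 the lowest sum (178) with a share of 18.5%. In Prdm1 cKO all 8 CD8 T cell markers were negative too (median -0.41, 1 called lower). Of 6 CD4 and regulatory T cell markers 1 was called lower (median -0.66). All 6 were negative, and Cd4 and Foxp3 were low already in wild type (means 0.44 and 1.34). The part of these cell types in the result was not tested.

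In the libraries labelled c-Maf cKO no ribosomal protein gene was called. Limma gave 0 of 81 in either direction, as for all genes (0% higher and 0% lower), with 4 of the 81 (4.94%) at an unadjusted p under 0.05 and 755 of all genes (6.16%). The median was -0.06, with 53 values negative and 28 positive, and it was 0.0045 without C1. The lowest was Rps27, at 359 in B10, 746 in B11 and 526 in C1 against 415 to 1300.3 in wild type, with -0.58 ± 0.27 (limma adjusted p = 0.80). The highest was Rps2, at 2260, 2031 and 1846 against 1237 to 2286, with 0.24 ± 0.14 (limma adjusted p = 0.82). Against the 4 wild-type libraries of run 2 alone, 31 genes were lower in all 3 libraries and 0 higher, where 4.07% and 3.06% of all genes were. With the column run as covariate the median was -0.18 and 0 genes were called.

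Between the knockout groups, cDKO against c-Maf cKO gave 50 genes higher and 1 lower (Rpl7l1) by limma, with a median of 0.55, against 3.78% and 5.61% of all genes. Rps27 led with 1.81 ± 0.35 (limma adjusted p = 0.0025), followed by Rps21 (1.03), Rps28 (1.02), Rpl12 (1.01) and Rps24 (1.0). The fall of Rpl7l1, 0.58 ± 0.18 (limma adjusted p = 0.039), did not hold in 13 of 39 alternative settings. It read 0.047 after rescaling to the CD3 genes, where the median of all genes was 0.50, and -0.28 (adjusted p = 0.67) with the column run as covariate. The adjusted p was 0.15 without B10, 0.13 without B11, 0.082 without A1 and 0.16 without A2. Without C1, the library with Maf signal, 34 genes were called, and with the column run as covariate 55, all higher; Rps27 was not among those 55 (1.86, adjusted p = 0.061). This comparison and the one with wild type share the cDKO libraries.

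For cDKO against Prdm1 cKO limma called 0 of the 81 genes, against 0.0653% of all genes higher and 0.327% lower. The median was 0.24, with 77 values positive and 21 (25.9%) at an unadjusted p under 0.05, against 12.6% of all genes. Rpl36 had the largest log2 fold change, 0.55 (limma adjusted p = 0.091), followed by Rplp1 with 0.51 ± 0.17 (limma adjusted p = 0.15). Without A6, 9 genes were called higher, and without A6 and B3 21, with a median of 0.40 in both cases. For Prdm1 cKO against c-Maf cKO 7 genes were higher (Rpl12, Rpl23, Rplp2, Rps21, Rps24, Rps27 and Rps29) and 0 lower, against 0.588% and 0.939% of all genes, with a median of 0.30. That count was 0 without A6, B10, B11 or C1, 1 without A9, and between 2 and 4 without any 1 of A7, A8, A10, A11, A12, B5, B8, B9, B1, B2, B4, A1 or A2.

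The departure from additivity, the cDKO change minus the sum of both single knockout changes, had a median of 0.28 over the 81 genes against 0 over all genes. Limma called 0 of the 81, against 0% of all genes positive and 0.00816% negative. At an unadjusted p under 0.05 there were 22 (27.2%), against 11.7% of all genes. Rpl36 came closest with 0.85 (limma adjusted p = 0.069). Without A6 the count was 9, and without A6 and B3 it was 18. The count thus depended on 1 Prdm1 cKO library.

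**Figure D4:**
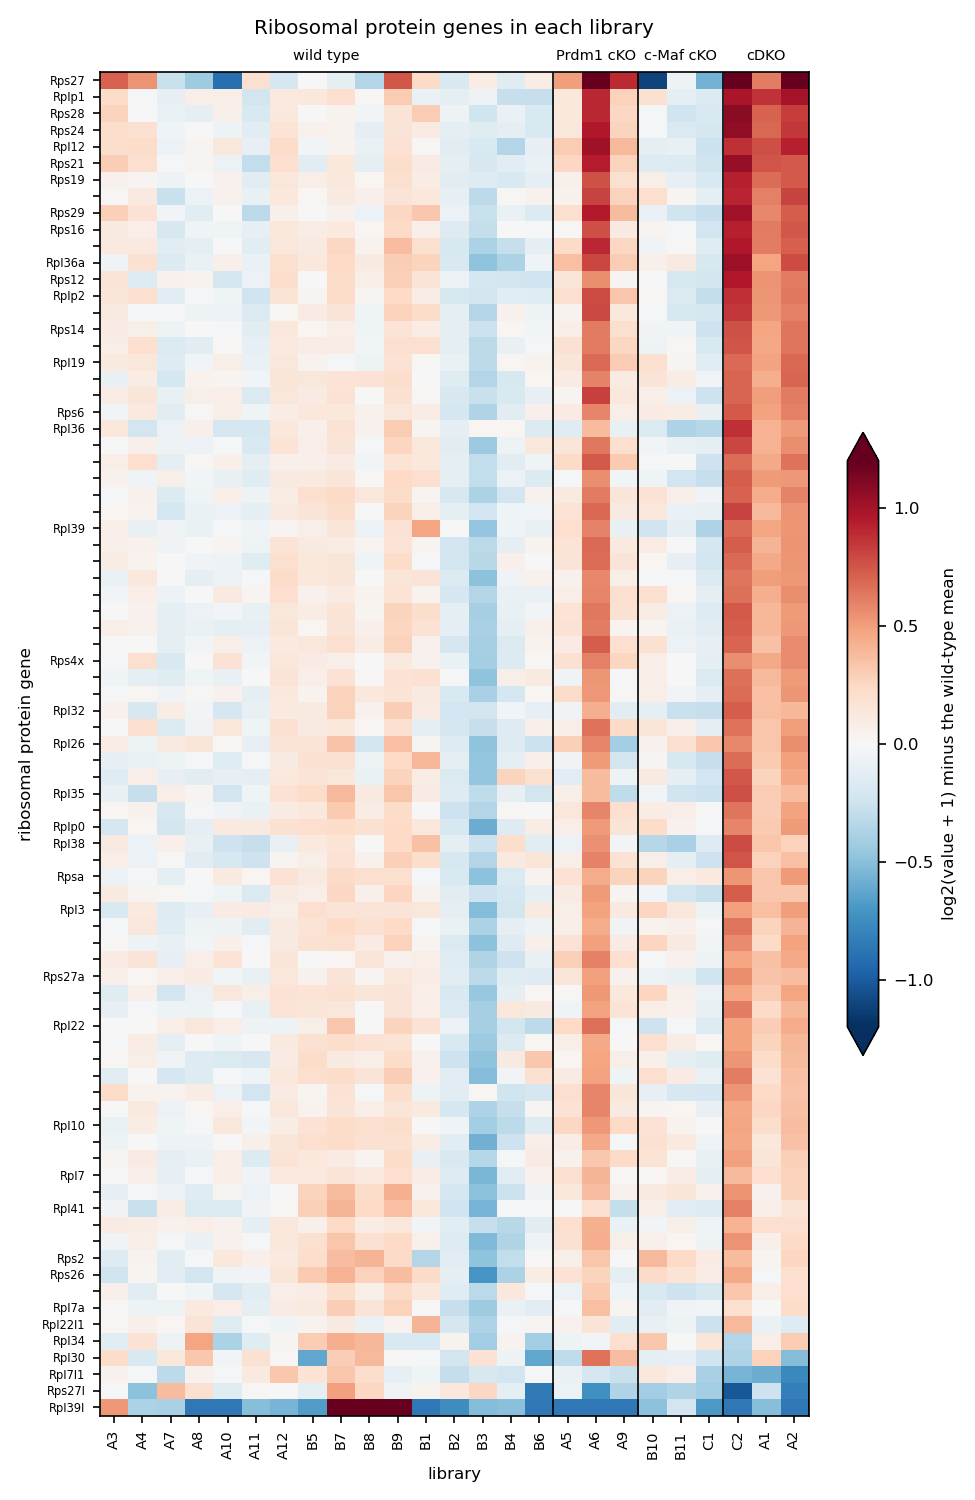
Log2(value + 1) minus the wild-type mean (colour) of the 81 genes (rows, ordered by the cDKO value, some labelled) in each of 25 libraries (columns, by genotype). C2, A1, A2 and A6 are higher across nearly all rows, B3 is lower, and the bottom rows, led by Rpl39l, Rps27l and Rpl7l1, run against the rest.

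Fold changes were also set against transcript length. Lengths from GENCODE M21 (GRCm38), matched for all 81 genes, ran from 368 to 3706 bases with a median of 697. In cDKO the 27 shortest, 27 middle and 27 longest had medians of 0.58, 0.45 and 0.48, with 22, 20 and 22 genes higher. Spearman's rho between length and log2 fold change was -0.19 for cDKO, 0 for Prdm1 cKO and 0.40 for c-Maf cKO over the 81 genes, which share libraries and are not replicates. In single libraries it ran from -0.36 in B3 to 0.48 in B11. With a length trend fitted over all genes and removed from each library, 71 genes were higher and 2 lower in cDKO.

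Other genes of translation were read in cDKO against the same background of 5.09% higher and 6.85% lower. Of 5 tested ribosome proteins in a list meant for names outside the pattern, which also holds the member Rpl41, 3 were higher and 0 lower. Fau, fused to a ubiquitin-like protein, rose from a mean of 1377 to 1954 (0.51 ± 0.12, limma adjusted p = 0.0079). Gnb2l1, the scaffold protein RACK1, rose from 711 to 862 (0.28 ± 0.09, limma adjusted p = 0.048).

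Of 23 translation factors and other genes whose mRNAs carry a 5′ oligopyrimidine tract, 4 were higher and 3 lower, with a median of 0.14. Tpt1, the translationally controlled tumour protein, rose from 1798 to 2861 (0.68 ± 0.11, limma adjusted p = 0.00027). The elongation factor subunit Eef1b2 rose by 0.55, and the small nucleolar RNA host genes Gas5 and Snhg1 rose by 0.79 and 0.55. Eif3l fell by 0.38, Hnrnpa1 by 0.58 and Nap1l1 by 0.56. The abundant elongation factors Eef1a1 and Eef2 had log2 fold changes of 0.28 and 0.18, with limma adjusted p of 0.087 and 0.38.

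Few genes of the other translation lists were called higher. Of 22 other initiation factors 0 were higher and 4 lower (Eif2s1, Eif4e, Eif5a and Eif6, by 0.47 to 0.58), with a median of -0.16. Of 38 ribosome biogenesis genes 1 was higher, Myc (0.53 ± 0.15, limma adjusted p = 0.019), and 1 lower, the snoRNP protein gene Nhp2 (-0.53 ± 0.17, limma adjusted p = 0.038), with a median of -0.15. Of 10 genes of mTORC1 signalling 1 was higher, the subunit gene Rptor (0.79 ± 0.21, limma adjusted p = 0.014), with a median of 0.07. Of 76 mitochondrial ribosomal protein genes 1 was higher (Mrpl30, 0.56) and 11 lower (from Mrpl40, -0.54, to Mrps6, -0.96), with a median of -0.29. The shares called lower among the initiation factors and the mitochondrial genes were above the 6.85% of all genes. At an unadjusted limma p under 0.05 stood 8 of the 22 initiation factors (36.4%) and 31 of the 76 mitochondrial genes. For the biogenesis genes it was 4 of 38 (10.5%), and for all genes 24.8%. The 45S precursor Rn45s took 15.03% to 16.1% of the summed signal in cDKO and 10.4% to 17.3% in wild type.

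**Figure D5:**
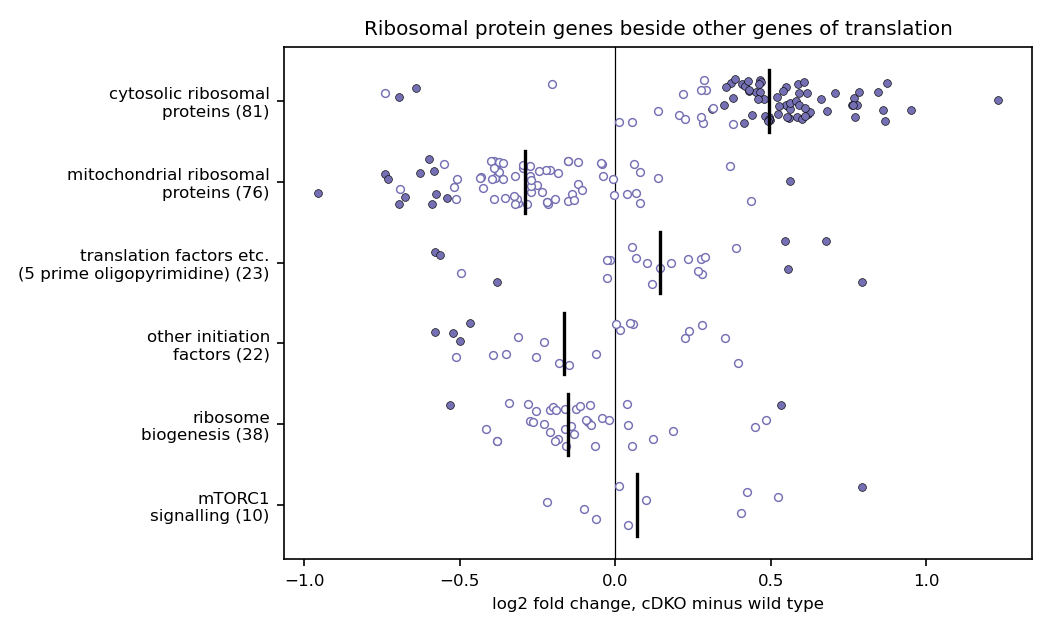
Log2 fold change of cDKO against wild type (x axis) of single genes (points) in 6 groups of translation genes (y axis, number tested in brackets); filled points passed the adjusted threshold of 0.05, and bars mark medians. Cytosolic ribosomal protein genes centre at 0.49, mitochondrial ones at -0.29 and biogenesis genes at -0.15.

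In Prdm1 cKO, Gnb2l1 (0.34 ± 0.09, limma adjusted p = 0.044), Tpt1 (0.59 ± 0.11, 0.0045) and Gas5 (0.59 ± 0.16, 0.033) were higher, the mTORC1 subunit gene Mlst8 was lower (-0.90 ± 0.24, 0.035), and Mrpl20 and Mrps17 fell by 0.52 and 0.60. The other initiation factors and biogenesis genes had 0 calls by limma, with 5 of 22 (22.7%) and 3 of 38 (7.89%) at an unadjusted p under 0.05, against 20.6% of all genes.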

How the data were processed

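The authors deposited 1 table of normalised signal (rows are gene symbols, columns are libraries) with 2 decimals, and the scale is not stated. The submitters' processing notes name TopHat, RSEM, DESeq and mouse build mm9; versions, settings and the handling of reads shared by similar genes are not given. The values are not counts. Low values of 48 small RNA genes came within 0.15 of whole multiples of a single-read step in 72.5% of 581 cases, so reads were not recovered, depth is unknown and no counting interval is given. Column totals ran from 389650 to 475956. The ending of a column name gave its genotype; 0 columns were left unassigned. The members, lists and tests were chosen with earlier results of these data known.

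Genes with a value of at least 1 in at least 3 libraries (12251) were fitted as log2(value + 1), a scale that understates changes of low values, in 1 model of all 25 libraries with limma 3.58.1 (R 4.3.3; trend and robust options), which was tested on simulated data. Contrasts were adjusted by Benjamini-Hochberg over all genes. Alternatives changed the pseudocount, filter, scaling, covariates and libraries used. Named genes are the 5 highest and 5 lowest members of each comparison, paralogues with their parents, Rplp0, Rplp1, Rplp2, Rpsa, Rps27a, Rps4x, Rps6 and Rpl22, and the extremes of wild-type level and spread; others were chosen after their values were seen. Sequences are RefSeq's on GRCm38.p6, not mm9. Some genes are not reported here by name.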

Additional observations from a re-analysis of the deposited data

How the results depend on the processing

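No paired analysis was possible because the labels name no animal or pair that would link libraries of different genotypes. The direction of every comparison's median over the ribosomal protein genes was kept in all alternatives except that of c-Maf cKO against wild type, which ran from -0.09 to 0.0045 when 1 library was left out, the highest without C1. In cDKO against wild type, 66 genes were called (42 to 68 with 1 library left out, the lowest without C2), 42 with quantile normalisation (median 0.22) and 0 with the naive and memory T cell score; rescaled to the CD3 genes the median was 0.92, where that of all genes was 0.31. In Prdm1 cKO against wild type the count of 9 ran from 0 to 19 with 1 library left out (0 without A6, 1 without A9, 14 without B3, 15 without A4 and 19 without A5) and the median from 0.10 to 0.34. It was 14 with a pseudocount of 10 or a minimum of 10, 30 with median-of-ratios scaling, 24 when scaled to the sum of other genes or with the length trend removed, 59 rescaled to the CD3 genes (median 0.74, that of all genes 0.37), 1 without limma's trend and robust options, and 0 with the column run, the macrophage and erythroid scores, the naive and memory score, or without A6 and B3 (median 0.076); quantile normalisation gave a median of 0.092. In c-Maf cKO against wild type rescaling to the CD3 genes gave a median of -0.28 (that of all genes -0.18), and 0 genes were called in all alternatives. In cDKO against Prdm1 cKO the count ran from 0 to 9 and the median from 0.15 to 0.40 with 1 library left out, with 1 gene when scaled to the sum of other genes and 21 (0.40) without A6 and B3. In cDKO against c-Maf cKO the count ran from 34 to 57, with 30 under the macrophage and erythroid scores and 0 under the naive and memory score; medians were 0.27 with quantile normalisation, 0.69 scaled to other genes (all genes 0.10), 1.198 rescaled to the CD3 genes (all genes 0.50) and 0.81 with the column run. In Prdm1 cKO against c-Maf cKO the count of 7 ran from 0 to 10 and the median from 0.14 to 0.39. It was 4 with a pseudocount of 0.1 or 10, 3 without a filter, 60 rescaled to the CD3 genes (median 1.02, that of all genes 0.55), 1 without the trend and robust options, and 0 with the column run, either marker score or without A6 and B3 (median 0.14); quantile normalisation gave 0.15. For the departure from additivity the count ran from 0 to 9 and the median from 0.19 to 0.44 with 1 library left out; 1 gene was called when scaled to other genes or with the length trend removed and 18 without A6 and B3 (median 0.46), and medians were 0.44 rescaled to the CD3 genes (all genes 0.15) and 0.51 with the column run. For single genes, Rpl10 in cDKO against wild type read -0.040 with quantile normalisation and Rpl7l1 in cDKO against c-Maf cKO read 0.047 rescaled to the CD3 genes. The cause of these changes was not tested. Unless stated, the share of all genes called in an alternative is not given, so its count cannot be set against that share. The settings without A6 and B3, with the length trend removed and with the naive and memory score were chosen after seeing the data. Where leaving out 1 library left 2 in a group, their spread was taken from all groups. Depth is unknown, so it cannot be said which low genes were beyond detection.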
